A study of Mus musculus with 6 samples.

Results

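The nuclear subunits of respiratory complexes II to V were described in pancreatic islets of control and Dpy30 knockout mice. They were taken by name, as the protein-coding genes whose GENCODE vM21 symbol is Sdha, Sdhb, Sdhc, Sdhd or Cyc1 or begins with Uqcr, Cox4 to Cox8 or Atp5. The rule found 49 genes among 54119 genes with transcripts in the tables: 4 of complex II, 9 of complex III, 18 of complex IV and 18 of complex V. It uses no measured value. Subunits filed under other names in this annotation, such as Usmg5, lie outside it.

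Polyadenylated RNA came from hand-picked islets of 3 control and 3 Dpy30 knockout mice, all males of the C57BL/6 strain aged 24 postnatal days, with 1 library per mouse. Dpy30 is a core subunit of the complexes that methylate lysine 4 of histone H3. The labels give each group by genotype only, as control or Dpy30 knockout. They name no Cre line, deleted exon or control allele, so the cells that lost the gene are not given here. Dpy30 transcripts without exon 4 held 5.24, 0.438 and 3.78% of the gene's reads in the controls and 82.2, 81.0 and 80.5% in the knockouts, of 614 to 844 reads per library over the 6 (replicates 1 to 3 in that order, here and below), so the 2 groups did not overlap; this split was chosen with earlier results known.

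Complexes II, III and IV pass electrons from succinate and from ubiquinol through cytochrome c to oxygen. Complexes III and IV pump protons as they do so, and complex V, the ATP synthase, uses the proton gradient to make ATP. In beta cells the ATP made from glucose closes potassium channels and so triggers insulin release. The subunits encoded in the nucleus are made in the cytosol and imported, and several subunits of complexes IV and V exist as paralogs made in different tissues.

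Depth ran from 17131515 to 25354384 estimated reads per library, lowest in knockout replicate 2. That library stood apart: the predicted gene Gm42418 took 14.7% of its reads and 0.099 to 0.236% in the other 5, and its long transcripts were low and its short ones high, as described beside the results. All 10 markers on a beta cell list were detected in every library, with a summed level of 160486 to 265065 CPM in controls and 71651 to 121954 CPM in knockouts. CPM are estimated reads scaled to library size. In 3 of these 10 markers (Slc2a2, Ucn3 and Slc30a8) the level fell (edgeR's quasi-likelihood test, adjusted p below 0.05, which is what called means below). Mafa alone had a log2 fold change above 0 (0.59, adjusted p = 0.097 by the same test). Its knockout libraries all lay above its controls, and it was not called. The 19 acinar markers summed to 2958, 4497 and 1274 CPM in controls and to 6580, 3187 and 19110 CPM in knockouts. All 18 tested had a log2 fold change above 0 (median 1.71), 13 at an unadjusted p below 0.05, and 2 rose (Prss1 and Try5). In such bulk samples fewer cells of a type and less RNA per cell cannot be told apart.

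In each of the 4 complexes some nuclear subunits rose in knockout islets, by 1.43- to 2.20-fold, and 26 of the other 29 tested had log2 fold changes above 0 without passing the test. Of the 49 genes, 44 had enough reads to be tested, and 15 of the 44 rose in knockout islets (34.1%), against 4.1% of all 16430 tested genes. By edgeR's test 0 fell, against 5.84% of all tested genes, and by DESeq2 0 as well. At an unadjusted p below 0.05 there were 34 members (77.3%, against 27.5% of all tested genes), of which 2 had negative values, Cox7a2l and Cox6b2. The median log2 fold change over the 44 was 0.62 and that over all tested genes was 0.01. In 41 members the log2 fold change was above 0. In 34 members every knockout library lay above every control library (77.3%, against 17.6% of all tested genes), and in 1 every knockout library lay below (2.27%, against 17.2%). Complex II had 2 of 4 members called higher (median log2 fold change 0.45), complex III had 3 of 9 (0.53), complex IV had 5 of 14 tested (0.69) and complex V had 5 of 17 tested (0.57).

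Some markers of other cells in the islets also rose or fell in knockout islets. Of 10 mesenchymal markers 1 rose, Pdgfra, a growth factor receptor, and 7 were at an unadjusted p below 0.05, all above 0 (median log2 fold change 0.78; DESeq2 called 5). They summed to 374.6 to 661.9 CPM in controls and 590.4 to 1133 CPM in knockouts, with overlap. Of 9 endothelial markers 4 rose (Pecam1, Plvap, Esam and Emcn; median 0.65), at a summed 609.7 to 748.0 CPM and 841.1 to 1050 CPM, without overlap. The 5 alpha cell markers had a median log2 fold change of -0.57, and Ttr alone had a value above 0. Their sum was 36430 to 65518 CPM in controls and 23964 to 28877 CPM in knockouts. Of 4 delta cell markers 2 fell, Sst, which encodes somatostatin, and Rbp4, and all 4 were at an unadjusted p below 0.05 (median -0.99), at 3117 to 3445 CPM and 1458 to 1873 CPM. Among 7 tested ductal markers Spp1 rose and Tspan8 fell, with sums of 337.5 to 401.1 CPM and 302.8 to 364.9 CPM. Of 9 immune markers 1 rose (Cd68) and 1 fell (C1qa), at 80.2 to 129.6 CPM and 96.5 to 99.6 CPM. In these 6 lists 0 markers had 0 reads in all libraries. The part of these cells in the subunits' values was not tested.

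**Figure D1:**
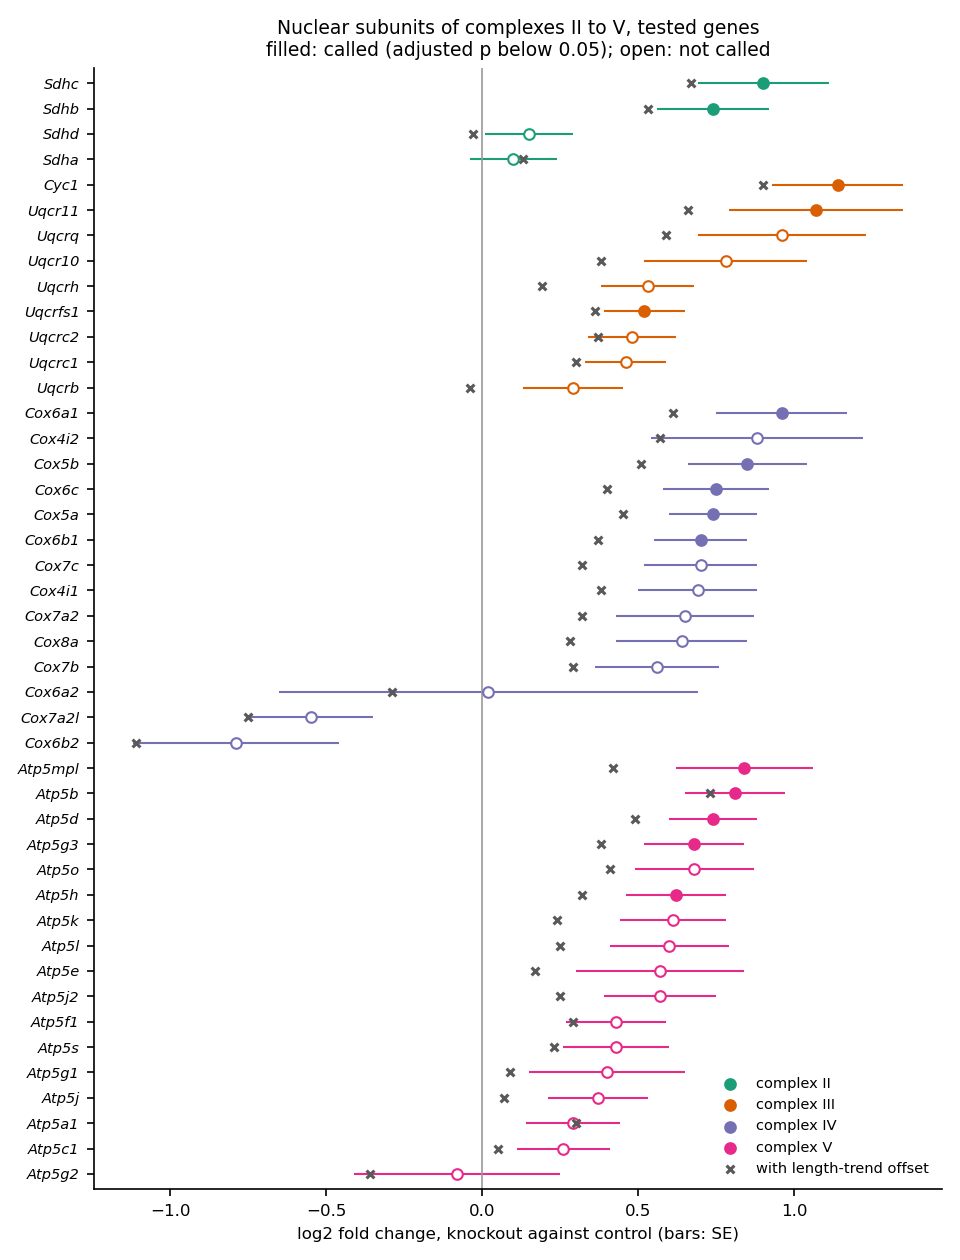
Log2 fold change of the 44 tested subunits, knockout against control islets, with bars for the SE, colored by complex; filled points passed the adjusted p threshold of 0.05 and crosses give the value after the length trend of each library was removed. Values run from -0.79 (Cox6b2) to 1.14 (Cyc1), with 41 of 44 above 0.

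The rise was uneven among libraries. The median over members of log2 CPM, set against the mean of the 6 libraries, was -0.46, -0.27 and -0.18 in the controls and 0.25, 0.58 and 0.04 in the knockouts. Control and knockout libraries did not overlap on this measure, but knockout replicate 3 lay close to the mean. Of the 44 members, 34 had their highest value in knockout replicate 2. Without that library 8 of 45 tested members were called higher (17.8%, against 3.26% of all tested genes) and the median log2 fold change was 0.44. The sum of the acinar markers was highest in knockout replicate 3, where the members were lowest of the 3 knockout libraries. In knockout replicate 2 that sum lay between the control values. With the acinar level as a covariate the members' median was 0.88. That fit called 4 members, Sdhb, Cyc1, Cox6a1 and Atp5mpl (9.09%, against 0.749% of all tested genes). The part of acinar cells in the members' values was not tested.

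The sequences before the transcription starts of 4 members are shown as examples, because the promoters of subunits that move together are often read for shared motifs. RefSeq promoters (GRCm38.p6, 250 bases before to 50 after the start) were matched for 36 of the 48 member symbols. The stretches printed end just before the first base of the annotated gene. Capitals mark an ETS motif (CCGGAAG), an NRF1 motif (GCGCATGC) or a CCAAT box (CCAAT), each on either strand. Uqcr11, Cox6a1 and Atp5b were called higher, and Cox8b, the muscle form of subunit 8, had at most 1 read in any library.
Uqcr11, chr10:80406831-80407071, minus strand: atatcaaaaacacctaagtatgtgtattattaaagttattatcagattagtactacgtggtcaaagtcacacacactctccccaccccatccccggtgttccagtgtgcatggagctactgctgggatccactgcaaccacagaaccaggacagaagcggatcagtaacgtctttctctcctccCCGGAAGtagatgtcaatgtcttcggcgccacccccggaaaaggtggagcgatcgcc
Cox6a1, chr5:115348982-115349208, minus strand: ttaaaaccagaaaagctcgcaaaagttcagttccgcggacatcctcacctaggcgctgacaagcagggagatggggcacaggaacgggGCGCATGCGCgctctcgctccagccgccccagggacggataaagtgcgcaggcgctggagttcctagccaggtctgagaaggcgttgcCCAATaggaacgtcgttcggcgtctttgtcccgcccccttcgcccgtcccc
Atp5b, chr10:128083057-128083272, plus strand: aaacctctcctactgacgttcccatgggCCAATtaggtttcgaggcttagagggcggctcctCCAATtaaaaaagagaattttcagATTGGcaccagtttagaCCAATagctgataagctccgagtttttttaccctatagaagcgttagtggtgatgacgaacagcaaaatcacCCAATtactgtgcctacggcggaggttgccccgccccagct
Cox8b, chr7:140900447-140900696, minus strand: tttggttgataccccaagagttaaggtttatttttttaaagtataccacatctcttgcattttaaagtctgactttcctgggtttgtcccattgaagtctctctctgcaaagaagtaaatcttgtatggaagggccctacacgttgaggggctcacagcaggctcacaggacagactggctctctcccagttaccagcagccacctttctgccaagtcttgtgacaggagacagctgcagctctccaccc
The Uqcr11 stretch holds an ETS motif close to the start, the Cox6a1 stretch holds overlapping NRF1 motifs on both strands and a CCAAT box, and the Atp5b stretch holds 5 CCAAT boxes, 1 of them on the opposite strand. The Cox6a1 stretch also overlaps a noncoding transcript of the other strand, Gm42903. The Cox8b stretch holds none of these motifs and 1 CpG in 250 bases, beside 21 in 227 bases for Cox6a1. Over the whole windows, which reach 50 bases past the start, the ETS motif was found in 33.3% of 33 matched tested members and 16.8% of 11787 tested genes. The NRF1 motif was found in 21.2% and 5.06%, and the CCAAT box in 54.5% and 38.3%. The YY1 motif (AAGATGGCG) was found in 3.03% and 2.9%. The printed stretches do not stand for all members. Uqcrfs1, Cox5a, Cox5b and Atp5d were called higher and held none of these motifs. Among members not called, Uqcrh and Atp5l held an ETS motif and a CCAAT box, while Cox7a2 and Cox7c held none. Cox7a1 and Cox7b2, too low to be tested, held a CCAAT box. The ETS motif was in 5 of 11 matched members called higher and in 6 of 22 not called, and the NRF1 motif in 3 of 11 and 4 of 22. The CCAAT box was in 6 of 11 and 12 of 22, the same share (54.5%), and the YY1 motif in 0 of 11 and 1 of 22. No test was made of these shares.

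Complex II oxidises succinate and has 4 subunits, all nuclear. The iron-sulfur subunit and 1 of the 2 membrane anchors rose while the catalytic flavoprotein did not pass the test. Sdhc, an anchor (chromosome 1, 171127165 to 171150603, GRCm38, minus strand), read 63.5, 84.4 and 81.2 CPM in controls and 121.3, 187.0 and 118.2 CPM in knockouts. All 3 knockout values lay above the controls, and the log2 fold change was 0.90 (SE 0.21, adjusted p = 0.0374 by edgeR's quasi-likelihood test). Sdhb, the iron-sulfur subunit (chromosome 4, 140961203 to 140979193, plus strand), read 49.5, 50.8 and 59.7 CPM in controls and 85.2, 110.6 and 71.9 CPM in knockouts. Again the groups did not overlap (log2 fold change 0.74, SE 0.18, adjusted p = 0.0396 by the same test). Sdha, which binds FAD and oxidises succinate, read 238.3, 243.0 and 221.1 CPM in controls and 274.8, 228.4 and 250.0 CPM in knockouts. These values interleave, at a log2 fold change of 0.10 (SE 0.14, adjusted p = 0.684). Sdhd, the other anchor, read 90.5, 87.3 and 105.3 CPM against 107.7, 111.6 and 94.7 CPM, with overlapping groups (log2 fold change 0.15, SE 0.14, adjusted p = 0.527). Per length the 4 control levels were closer than in CPM, at 49.5 ± 8.18 TPM (SD, n = 3) for Sdhb, 74.5 ± 9.16 for Sdhc, 80.1 ± 13.9 for Sdhd and 80.9 ± 5.56 for Sdha. TPM are reads per length, scaled so that each library has the same sum; they are used here to compare genes within a library, since the share of reads of Ins1 and Ins2 differed between the groups (13.6 to 21.9% in control and 6.51 to 9.66% in knockout libraries).

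Complex III hands electrons from ubiquinol to cytochrome c. All 9 of its members had a log2 fold change above 0, and 3 were called, including both redox subunits. Cyc1, the haem-bearing cytochrome c1 (chromosome 15, 76343523 to 76346260, plus strand), read 36.8, 43.4 and 44.6 CPM in controls and 74.1, 121.1 and 79.2 CPM in knockouts. It rose 2.20-fold (log2 fold change 1.14, SE 0.21, adjusted p = 0.0142 by edgeR's quasi-likelihood test), the highest log2 fold change of the 44 tested members. It also stayed called in each of the 16 other ways of processing that were tried, at log2 fold changes of 0.77 to 1.40. The coding transcript Cyc1-201 held 55.5 to 70.6% of its reads, and the rest went to transcripts with a retained intron, a nonsense-mediated decay label or no coding region. Uqcrfs1, the Rieske iron-sulfur protein (chromosome 13, 30540308 to 30545362, minus strand), read 66.3, 68.3 and 69.7 CPM in controls and 92.4, 108.6 and 91.7 CPM in knockouts. The control libraries lay close together and the groups did not overlap (log2 fold change 0.52, SE 0.13, adjusted p = 0.0403). Uqcrfs1 was called in none of the 6 fits that left out 1 library.

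The other 7 members of complex III are core and accessory proteins without a redox centre. Uqcr11, a small accessory subunit (chromosome 10, 80402997 to 80406830, minus strand), whose promoter is printed above, read 40.1, 50.9 and 50.7 CPM in controls and 78.2, 147.7 and 71.5 CPM in knockouts. Knockout replicate 2 was the highest by far, and the log2 fold change was 1.07 (SE 0.28, adjusted p = 0.0491) with all libraries and 0.66 (adjusted p = 0.0442) without that library. The core proteins Uqcrc1 and Uqcrc2 had log2 fold changes of 0.46 and 0.48 with groups that did not overlap, and neither passed (adjusted p = 0.0583 and 0.0629 by edgeR's quasi-likelihood test). Of the small subunits, Uqcrq (0.96), Uqcr10 (0.78) and Uqcrh, the acidic hinge protein (0.53), did not pass either. Uqcrq passed when the replicate number of the labels was added as a block (adjusted p = 0.0296). The lowest value was that of Uqcrb, which helps bind ubiquinone, at 60.8, 67.4 and 76.5 CPM in controls and 90.8, 90.2 and 69.4 CPM in knockouts. Knockout replicate 3 lay within the controls (log2 fold change 0.29, SE 0.16, adjusted p = 0.275).

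**Figure D2:**
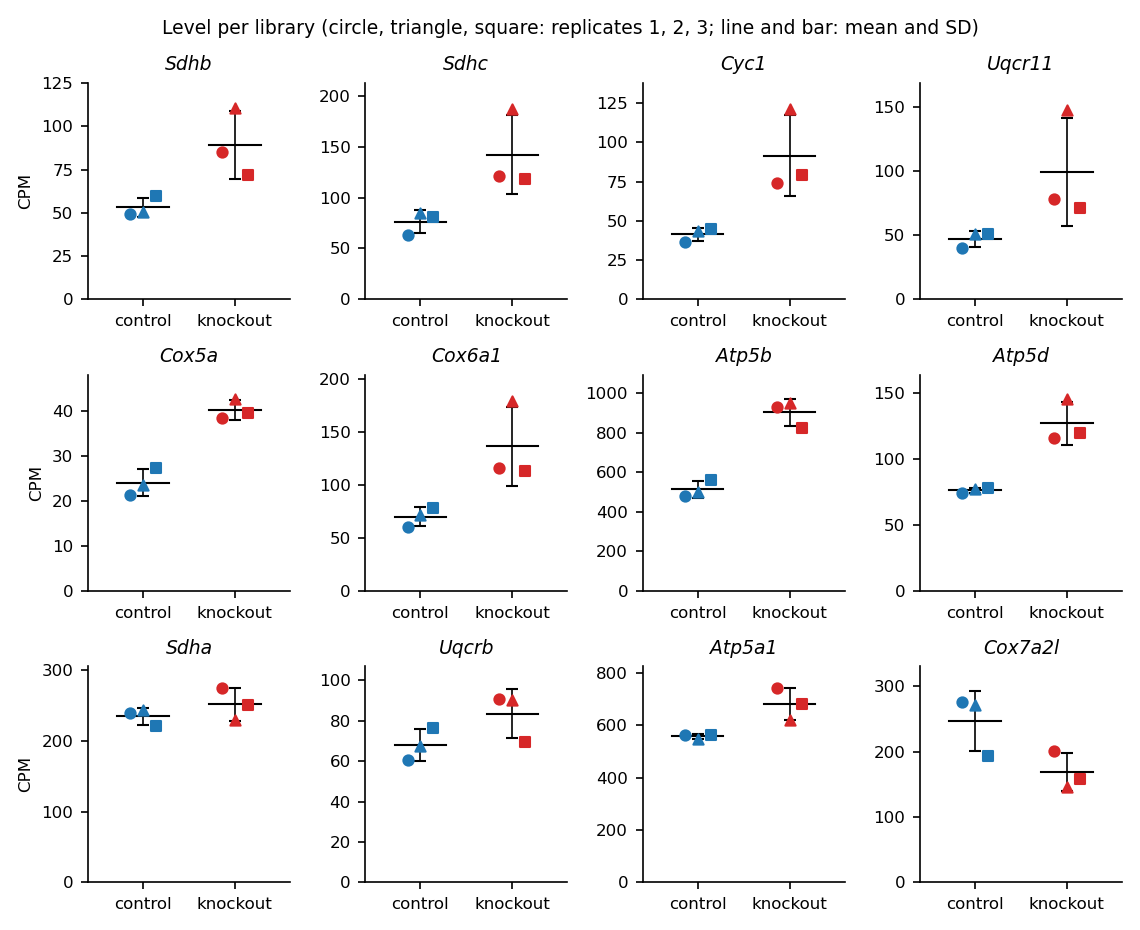
CPM of 12 subunits in each library, with circle, triangle and square for replicates 1, 2 and 3 and the mean and SD of each group as line and bar (n = 3 each; every axis starts at 0). In the upper 8 panels all knockout libraries lie above all controls; Sdha, Uqcrb and Cox7a2l overlap, and knockout replicate 2 is often the highest.

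Complex IV, cytochrome c oxidase, reduces oxygen; its catalytic core is encoded by mitochondrial DNA, and the nuclear members form the shell around it. Of its 14 tested members 5 rose. Cox5a (chromosome 9, 57521274 to 57532426, plus strand) read 21.3, 23.6 and 27.3 CPM in controls and 38.3, 42.6 and 39.5 CPM in knockouts. The 3 knockout values lay close together above the controls (log2 fold change 0.74, SE 0.14, adjusted p = 0.0166 by edgeR's quasi-likelihood test). Cox5b, which binds zinc, averaged 58.3 ± 7.47 CPM in controls and 105.3 ± 23.7 CPM in knockouts (SD, n = 3 each), a log2 fold change of 0.85, called (adjusted p = 0.0284). Cox6c, a small membrane subunit, had means of 91.5 ± 6.22 and 153.5 ± 29.9 CPM and a log2 fold change of 0.75 (adjusted p = 0.0333). Cox7c, another small subunit, lay just outside the threshold (log2 fold change 0.70, adjusted p = 0.0503) and passed it with the replicate block (0.0451).

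The remaining members of complex IV belong to 6 sets of paralogs, and in each the form made in most tissues held the larger share or, in the Cox7a set, nearly all together with Cox7a2l. Cox6a1, the form made in most tissues (chromosome 5, 115345642 to 115348981, minus strand; promoter above), read 60.2, 71.3 and 78.3 CPM in controls and 115.8, 179.4 and 113.1 CPM in knockouts. It rose 1.95-fold without overlap (log2 fold change 0.96, SE 0.21, adjusted p = 0.0278 by edgeR's quasi-likelihood test). Its heart and muscle paralog Cox6a2 read 5.80, 44.4 and 9.86 CPM in controls and 16.2, 28.3 and 16.7 CPM in knockouts. Control replicate 2 was the highest of all and the other controls the lowest, so the log2 fold change of 0.02 (SE 0.67, adjusted p = 0.988) has a wide error. Per length Cox6a2 made up 7.01, 32.7 and 8.94% of the Cox6a pair in control and 9.84, 11.0 and 10.3% in knockout libraries. The muscle markers summed to 2.20 to 8.55 CPM in the 6 libraries, with Myh4 at 0 in all, and to 2.20 CPM in control replicate 2 itself, where Cox6a2 was highest.

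Cox6b1, which faces the intermembrane space, read 62.4, 70.5 and 71.6 CPM in controls and 101.7, 129.7 and 100.8 CPM in knockouts. It rose without overlap (log2 fold change 0.70, SE 0.15, adjusted p = 0.0251 by edgeR's quasi-likelihood test). Its testis paralog Cox6b2 was low and ran the other way, at 1.00, 1.08 and 0.780 CPM in controls and 0.482, 0.567 and 0.602 CPM in knockouts. This was the single member whose knockout libraries all lay below the controls, and it did not pass the test (log2 fold change -0.79, SE 0.33, adjusted p = 0.166). With 9 to 25 reads per library its share of the Cox6b pair was 1.70% ± 0.437 in control and 0.657% ± 0.103 in knockout libraries (SD, n = 3 each; exact two-sided permutation p = 0.1, the smallest that 3 against 3 allows, and 0.4 adjusted over 16 shares).

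In the Cox7a set the shares of both main genes did not overlap between the groups, though an exact permutation test of 3 against 3 libraries cannot go below 0.1. Cox7a2, the form made in most tissues, read 66.7, 79.8 and 85.0 CPM in controls and 122.9, 152.8 and 86.6 CPM in knockouts. The groups were separated narrowly, with knockout replicate 3 beside the highest control (log2 fold change 0.65, SE 0.22, adjusted p = 0.0983 by edgeR's quasi-likelihood test). Cox7a2l, which encodes a related protein (chromosome 17, 83501918 to 83517330, minus strand), read 275.7, 271.5 and 193.4 CPM in controls and 201.5, 146.6 and 158.5 CPM in knockouts. It was the member above 5 CPM of lowest log2 fold change, at -0.55 (SE 0.20, adjusted p = 0.117), and control replicate 3 lay among the knockout values. With the replicate block and the length trend removed together 11 of 44 members passed as higher (against 7.44% of all tested genes) and Cox7a2l as lower (adjusted p = 0.0465, 1 of 44 members, against 8.87%). Per length, Cox7a2l held 68.4, 64.0 and 54.3% of the set in control and 46.3, 33.7 and 49.0% in knockout libraries, while Cox7a2 held 31.2, 35.6 and 45.2% and 53.3, 66.0 and 50.6%. The difference in the mean share of Cox7a2 was 19.3 percentage points and the groups did not overlap (exact two-sided permutation p = 0.1, the smallest possible, and 0.4 adjusted over 16 shares). Their effective lengths differ, at 888.1 bases for Cox7a2l and 470.4 for Cox7a2, and in knockout replicate 2, where short transcripts were high, the share of Cox7a2 was the highest. Without that library the knockout shares of Cox7a2 still lay above those of the controls. The groups still differed in length trend, however. The Spearman correlation of level with length across genes was 0.167 to 0.291 in controls and 0.02 and 0.032 in knockout replicates 1 and 3. The shares were not corrected for this trend, and its part in them was not tested. The muscle form Cox7a1 had 5 to 11 reads per library and was not tested.

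Cox4i1, the most common form of subunit 4, read 159.6, 161.0 and 164.8 CPM in controls and 243.2, 333.4 and 204.7 CPM in knockouts. No knockout library overlapped the controls, but the spread among them was wide (log2 fold change 0.69, SE 0.19, adjusted p = 0.0617 by edgeR's quasi-likelihood test). Its lung paralog Cox4i2 read 1.96, 1.55 and 1.27 CPM and 2.13, 3.97 and 2.78 CPM (log2 fold change 0.88, SE 0.34, adjusted p = 0.14), and held 0.786 to 1.38% of the pair in the 6 libraries. Cox8a read 105.1, 126.9 and 119.9 CPM in controls and 159.5, 244.2 and 145.5 CPM in knockouts without overlap (log2 fold change 0.64, adjusted p = 0.0964). Its paralogs were at or near 0 reads. The muscle form Cox8b had 1 read in each of 2 knockout libraries and the testis form Cox8c had 0 reads, which allows up to 3 reads per library. Cox7b read 47.7, 54.5 and 68.0 CPM in controls and 83.2, 101.1 and 66.5 CPM in knockouts, with knockout replicate 3 among the controls (log2 fold change 0.56, adjusted p = 0.113), and its testis paralog Cox7b2 had 2 reads in 1 control library.

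**Figure D3:**
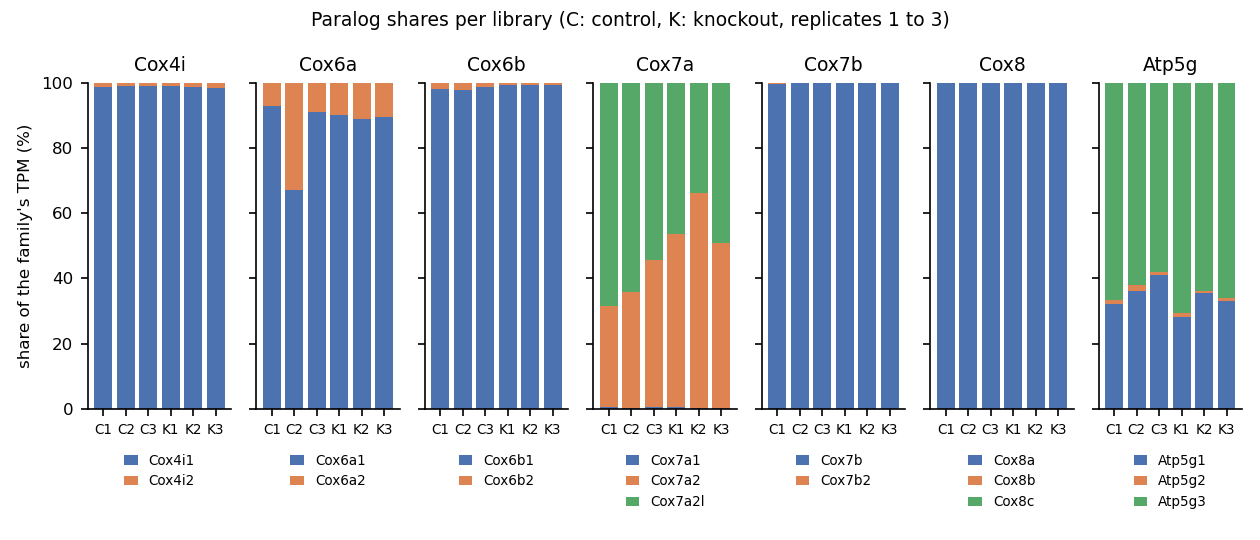
Share of each paralog set's summed TPM held by each gene, in percent, as stacked bars for the 3 control (C) and 3 knockout (K) libraries. The Cox7a bars separate the groups, with Cox7a2 at 31.2 to 45.2% in control and 50.6 to 66.0% in knockout libraries, while Cox4i, Cox6b, Cox7b and Cox8 are each above 97% for a single gene in every library; Cox6a2 stands out in control replicate 2.

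Complex V turns the proton gradient into ATP through a catalytic head, a central and a peripheral stalk and a membrane rotor. Of its 17 tested members 5 rose, spread over head, stalks, rotor and membrane part. Atp5b, the catalytic beta subunit (chromosome 10, 128083273 to 128090391, plus strand; promoter above), read 477.5, 500.6 and 562.3 CPM in controls and 930.8, 950.0 and 825.5 CPM in knockouts. It rose 1.76-fold, with the 3 knockout libraries all above the highest control (log2 fold change 0.81, SE 0.16, adjusted p = 0.0169 by edgeR's quasi-likelihood test). Its partner in the head, the alpha subunit Atp5a1, read 563.6, 546.4 and 563.0 CPM in controls and 740.1, 620.3 and 681.8 CPM in knockouts. These groups did not overlap either, but the difference was smaller and did not pass (log2 fold change 0.29, SE 0.15, adjusted p = 0.248).

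Of the central stalk, Atp5d (chromosome 10, 80138632 to 80145818, plus strand) read 74.1, 77.2 and 77.9 CPM in controls and 116.0, 145.8 and 120.0 CPM in knockouts. The controls were tight and the groups apart (log2 fold change 0.74, SE 0.14, adjusted p = 0.0158 by edgeR's quasi-likelihood test). The gamma subunit Atp5c1, which turns inside the head, read 148.7, 133.5 and 141.1 CPM and 179.9, 183.8 and 143.0 CPM, with knockout replicate 3 between the controls, and had the lowest log2 fold change of the complex above 5 CPM (0.26, SE 0.15, adjusted p = 0.298). The epsilon subunit Atp5e had 0.57 (adjusted p = 0.206). Of the peripheral stalk, Atp5h read 80.4, 100.4 and 103.9 CPM in controls and 157.5, 156.3 and 125.3 CPM in knockouts and was called (log2 fold change 0.62, SE 0.16, adjusted p = 0.0479). It was not called with the replicate block (adjusted p = 0.0516). The stalk subunits Atp5o (0.68), Atp5f1 (0.43) and Atp5j (0.37) did not pass, though Atp5o did with the block (adjusted p = 0.0369). A second gene model that carries the Atp5o name, overlaps the end of that gene and extends past it had 0 reads in all libraries.

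The ring of c subunits is encoded by 3 genes that yield the same mature protein. Atp5g3, which held 57.9 to 70.6% of their summed TPM, read 108.1, 119.4 and 130.9 CPM in controls and 179.0, 226.3 and 167.7 CPM in knockouts. It rose without overlap (log2 fold change 0.68, SE 0.16, adjusted p = 0.0381 by edgeR's quasi-likelihood test). Atp5g1 read 47.4, 63.1 and 81.6 CPM in controls and 66.0, 110.3 and 76.8 CPM in knockouts, with interleaved values (log2 fold change 0.40, SE 0.25, adjusted p = 0.344). Atp5g2 read 1.92, 3.40 and 2.38 CPM and 2.93, 2.52 and 1.84 CPM (log2 fold change -0.08, SE 0.33, adjusted p = 0.904), and held 0.751 to 1.80% of the TPM. None of the 3 shares differed beyond the spread of the libraries (exact two-sided permutation p of 0.2 to 0.4). Among the small membrane subunits, Atp5mpl, the shortest tested member with an effective length of 189.1 bases, read 30.0, 33.8 and 35.4 CPM in controls and 54.7, 78.9 and 43.7 CPM in knockouts. It was called (log2 fold change 0.84, SE 0.22, adjusted p = 0.0474), and knockout replicate 2 was the highest. Atp5k (0.61) and Atp5l (0.60), which help the enzyme form dimers, and Atp5j2 (0.57) did not pass, and Atp5k did with the block (adjusted p = 0.0392). Atp5s, a low-abundance protein that carries the family name, at 11.6 ± 0.390 CPM in controls and 15.7 ± 2.05 CPM in knockouts (SD, n = 3 each), had 0.43 on that scale (adjusted p = 0.15).

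Transcript length moved with the result. The tested members are short, with effective lengths (annotated length less what a fragment cannot start from) of 189.1 to 2540 bases and a median of 504.0, against 2223 over all tested genes. Across 10534 genes above 8 CPM (genes are no independent replicates) the log2 fold change had a Spearman correlation of -0.312 with effective length. Within single libraries, levels relative to the mean of the 6 correlated with length at -0.513 in knockout replicate 2 and at 0.02 to 0.291 in the other 5. Without knockout replicate 2 the correlation of the log2 fold change was -0.156. Over 41 members above 8 CPM it was -0.415 with all libraries and -0.246 without that one.

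The members were also set beside genes of like length. Genes were split by length into 5 equal bins. In the shortest bin (effective length up to 1292 bases) the median log2 fold change was 0.24 over 2071 other genes and 0.64 over 36 members. In that bin 5.99% of the other genes were called higher and 14 of the 36 members. Without knockout replicate 2 the medians were 0.13 and 0.46. When the smooth trend of level on length was removed from each library before the test, they were 0.01 and 0.32. With this offset 9 of 44 members were called higher (20.5%, against 4.69% of all tested genes), all among the 15: Sdhb, Sdhc, Cyc1, Uqcr11, Cox5b, Cox6a1, Atp5b, Atp5d and Atp5mpl. The members' median log2 fold change then was 0.32. With the offset and without knockout replicate 2 it was again 0.32, and 3 members, Cyc1, Atp5b and Atp5d, were called (6.67%, against 3.18% of all tested genes). Why levels in knockout replicate 2 followed length was not tested.

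**Figure D4:**
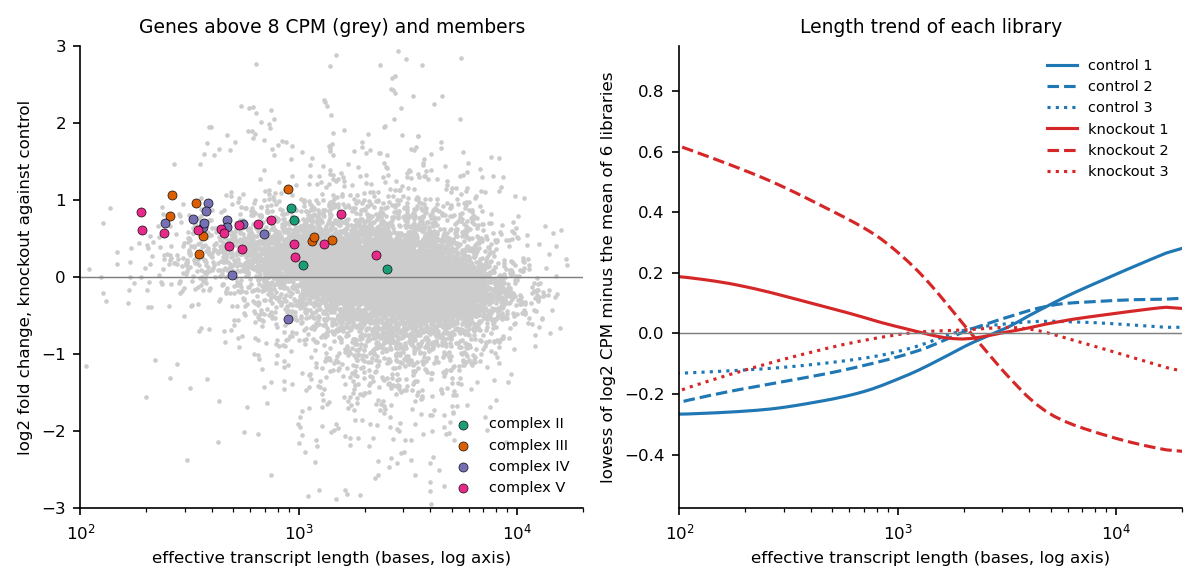
Left, log2 fold change against effective length on a log axis for genes above 8 CPM (grey) and subunits colored by complex; right, the smooth trend of level on length in each library, relative to the mean of 6. The subunits lie at short lengths and mostly above the grey points beside them, and knockout replicate 2 has the steepest trend, falling with length.

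The number of called members depended on single libraries and on the test. Leaving out 1 library at a time left 1 to 8 members called; the shares of all tested genes called were lower as well. Without control replicate 1 or 2 the count was 1 (against 2.17 and 1.69% of all genes) and without control replicate 3 it was 2 (against 1.44%). It was 7, 8 and 6 when knockout replicate 1, 2 or 3 was left out (against 2.32, 3.26 and 1.62%). Only Cyc1 was called in all 6 of these fits, 3 of the 15 were called in at least 3 of them (Cyc1, Cox5a and Atp5b) and 11 in at least 1. Sdhc, Uqcrfs1, Atp5g3 and Atp5h were called in none of the 6. The members' median stayed between 0.44 and 0.74. DESeq2 on the same counts called 28 of 44 higher (63.6%, against 7.29% of all genes) and held all 15. The replicate block called 18 of 44 (40.9%, against 6.93%), of which 14 were among the 15. The authors' deposited table, made with their own fit, lists 29 of 45 members with values as higher at an adjusted p below 0.05 (64.4%, against 6.66% of its genes) and 0 as lower, and all 15 are among the 29. In the authors' deposited table Atp5b and Cyc1 have log2 fold changes of 0.87 and 1.14, beside 0.81 and 1.14 here. The other members called here have smaller values there, such as 0.73 for Sdhc (0.90 here) and 0.71 for Atp5mpl (0.84 here).

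**Figure D5:**
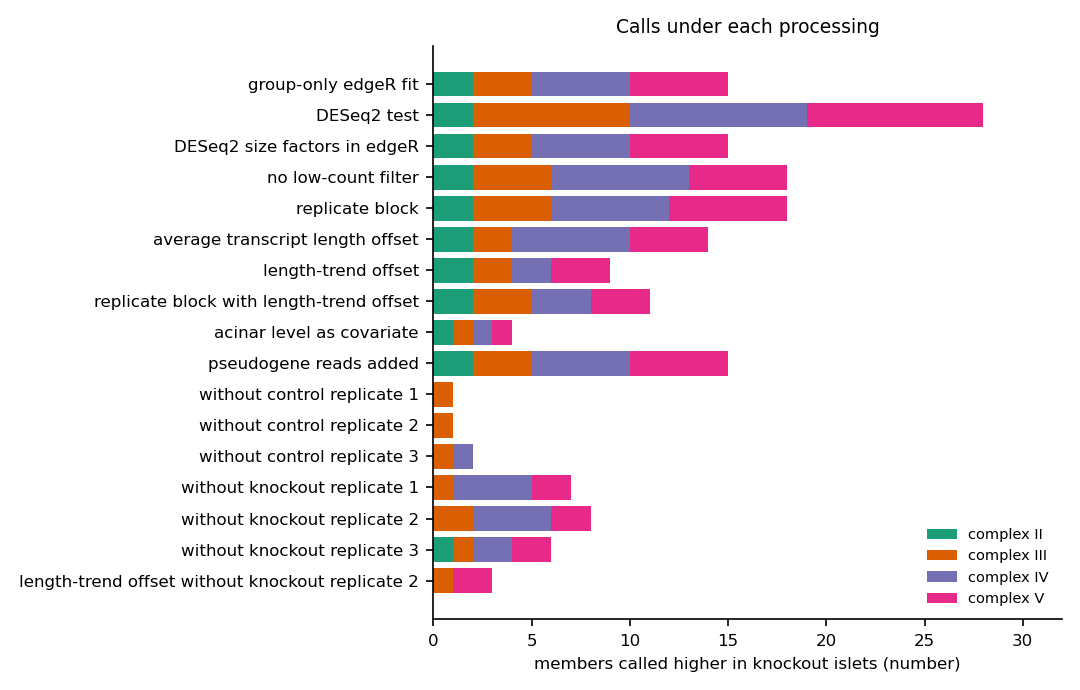
Number of members called higher in knockout islets (adjusted p below 0.05) under each way of processing, as bars stacked by complex. The count runs from 1 without control replicate 1 or 2 to 28 with DESeq2, against 15 in the fit reported here.

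Genes around the subunits were counted in the same way. Of the assembly factors, 0 of 4 tested for complex II, 0 of 6 for III, 0 of 24 for IV and 0 of 4 for V were called in either direction, with median log2 fold changes of 0.32, 0.40, 0.22 and 0.11 by edgeR's quasi-likelihood test. Over all tested genes edgeR called 4.1% higher and 5.84% lower. At an unadjusted p below 0.05 there were 1, 0, 4 and 1 factors, against 27.5% of all tested genes. DESeq2 called 1, 0, 1 and 0, against 1198 of all 16430 genes higher and 1435 lower. The smallest p in each list belonged to Sdhaf1, which inserts iron-sulfur clusters into Sdhb (log2 fold change 0.77, adjusted p = 0.114), Lyrm7, which guides the Rieske protein (0.47, 0.221), Higd2a, an assembly factor of complex IV (0.68, 0.0866), and Tmem70, which helps build the c ring (0.33, 0.163). Higd2a and Sdhaf1 passed with the replicate block (adjusted p = 0.0326 and 0.0465). The inhibitor of the ATP synthase, Atpif1, read 86.8 ± 7.16 CPM in controls and 80.5 ± 6.02 CPM in knockouts (SD, n = 3 each; log2 fold change -0.11, adjusted p = 0.631).

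The 6 subunits of complexes III to V encoded by mitochondrial DNA were not called, against 4.1% of all tested genes higher and 5.84% lower. At an unadjusted p below 0.05 by edgeR there were 0, against 27.5% of all tested genes, and DESeq2 called 0. Their log2 fold changes ran from 0.06 (mt-Cytb) to 0.27 (mt-Co1 and mt-Atp6), with a median of 0.18. Knockout replicate 1 had the highest value of each of the 6, such as 15626 CPM of mt-Co1 beside 9982 to 12211 CPM in the other 5 libraries. Among 10 tested carriers and partners, Ucp2, an uncoupling protein of the inner membrane, fell from 370.3, 302.5 and 285.8 CPM in control to 122.4, 92.4 and 132.6 CPM in knockouts. The groups lay far apart, and the call held without any 1 library (log2 fold change -1.46, SE 0.19, adjusted p = 0.0042 by edgeR's quasi-likelihood test). Cytochrome c, Cycs, had 0.66 on the log2 scale (SE 0.25, adjusted p = 0.127) and Ndufa4, a small subunit bound to complex IV, 0.73 (SE 0.27, adjusted p = 0.127). The adenine nucleotide carriers Slc25a4 and Slc25a5 had 0.23 and 0.31 and did not pass.

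Of 11 regulators of respiratory genes 1 rose, against 4.1% of all tested genes. Ppargc1a, a coactivator of mitochondrial gene programmes, read 3.25, 2.11 and 1.31 CPM in controls and 15.1, 5.17 and 6.69 CPM in knockouts. The groups did not overlap and knockout replicate 1 was the highest (log2 fold change 2.02, SE 0.49, adjusted p = 0.0386 by edgeR's quasi-likelihood test). It was called in 2 of the 6 fits without 1 library, and not with the acinar level as a covariate (adjusted p = 0.227). Nrf1, the factor the motif above is named for, had -0.29 on the log2 scale (adjusted p = 0.238), Gabpa, an ETS factor, 0.23 (adjusted p = 0.244), and Esrra, an orphan receptor, 0.31 (adjusted p = 0.426).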

How the data were processed

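Islet RNA of 6 mice was sequenced, 1 library per mouse. Reads were processed with Trimmomatic and Salmon, and DESeq2 is named too, per the submitters' processing notes, which name the builds GRCm38 and mm10. Versions: not given in the sources. Per transcript, the authors deposited estimated counts, TPM and effective lengths, per the file headers, and their own comparison as a table of log2 values (fold changes) and p-values. A deposited table of scaled gene counts was not used.

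Transcripts were assigned to GENCODE vM21 genes (139852 of 140948, holding 99.6 to 99.7% of reads per library), and their estimated counts, summed by gene, were rounded to whole numbers. Genes were kept by filterByExpr (minimum count 10), scaled by TMM and tested with edgeR 4.0.16 (quasi-likelihood, group as the term, two-sided) in R 4.3.3, with Benjamini-Hochberg adjustment over all tested genes and a threshold of 0.05. DESeq2 1.42.0 was an alternative. The SE was derived from the F statistic. The common biological variation (BCV) was 0.26. CPM are on scaled libraries. The length-trend offset is a lowess of each library's log2 CPM deviation on log2 effective length over genes above 8 CPM. Shares of reads cover counting of estimated reads, and their precision is that of 3 libraries per group. Counts of 0 allow up to 3 reads. The labels do not say what a replicate number marks. Deviations from group means correlated at 0.427, 0.135 and 0.196 between libraries of the same number, and at -0.318 to 0.14 between others. By a rule of above 0.1 the numbers were taken as a possible pairing and used as a block in alternative fits. An unmatched pair, control replicate 3 and knockout replicate 2, also lay above 0.1 (0.14). The reported fit used group alone, and the permutation tests were unpaired. Libraries of a group differed by more than sampling noise (chi-square over its degrees of freedom: 56.3 to 342.7). The procedure was tested on simulated counts (means of 3 sets). Without a length trend the group-only fit recovered 28.7% of 2-fold changes, and 9.34% of its calls were false. With a length trend put into 1 library it recovered 12.9%, and 4.74% of its calls were false. Unchanged short genes then had a median log2 fold change of 0.416. With the length-trend offset that median was 0.0096, 24.5% were recovered and 6.65% of calls were false.

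The members and lists were chosen with earlier results of these data known. Values per library are given for the 3 members of smallest p in each complex (5 in complex V), every member of a paralog set, the catalytic and redox subunits and the member of lowest change above 5 CPM per complex; from each list of other genes those of smallest p and those called are named. Other list genes are counted only; Atpif1, Slc25a4, Slc25a5 and Esrra were named for their roles after their values were seen. Calls of some single marker genes are not reported here.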

Additional observations from a re-analysis of the deposited data

How the results depend on the processing

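Among the tested members, taken one by one, DESeq2 size factors in edgeR and added pseudogene reads changed no direction and no call. Counts called higher, members first and then all genes, were as follows. DESeq2 gave 28 and 1198, the length-trend offset 9, the acinar covariate 4 and 123 (267 lower), the replicate block 1138 of all genes, and the block with the length-trend offset 1222 (1458 lower) with 1 member lower, Cox7a2l, of complex IV. The length-trend offset without knockout replicate 2 gave 3. Leave-one-out fits gave 1 to 8 members, and 243 to 550 genes higher and 464 to 780 lower. Per complex, DESeq2 called 8 in III, 9 in IV and 9 in V; the length-trend offset 2 in IV and 3 in V, and with the block 3 and 3; without knockout replicate 2 as well 0 in II, 1 in III, 0 in IV and 2 in V; the acinar covariate 1 in each. Without 1 library the counts ran from 0 to 1 in complex II, 1 to 2 in III, 0 to 4 in IV and 0 to 2 in V. The members' median was 0.32 with the length-trend offset, also with the block or without knockout replicate 2, and 0.88 with the acinar covariate. The replicate block ended the call of Atp5h and added Uqcrq, Cox7c, Atp5k and Atp5o; it changed no other member's call.

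Direction reversed for Sdhd (-0.03 with the length-trend offset, with and without the block), Uqcrb (-0.04, and -0.05 with the block), Atp5g2 (0.00 with the acinar covariate, and -0.26 to 0.17 without 1 library, above 0 without control replicate 2 or knockout replicate 3) and Cox6a2 (-0.00 without the low-count filter, -0.29 with the length-trend offset, -0.43 with that offset and without knockout replicate 2, -0.15 with the acinar covariate, and -0.42 to 1.37 without 1 library, below 0 without control replicate 1 or 3 or knockout replicate 2). None of these 4 was called in the reported fit, and the cause was not tested. With 3 mice per group, changes under 2-fold were at the edge of what the test called, and members under 30 reads per library, such as Cox6b2 and Cox7a1, carry mainly counting error.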

Other observations

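Several members share a start region with a gene on the other strand. Of 44 tested members 10 had a partner whose start lay within 1000 bases (22.7%), against 9.54% of 14232 tested protein-coding genes. Of the 10 partners 8 were tested, and 0 were called in either direction by edgeR's test or by DESeq2. Over all tested genes edgeR called 4.1% higher and 5.84% lower. At an unadjusted p below 0.05 there were 2 partners, Ccdc127 among them, against 27.5% of all tested genes. The 8 tested partners had a median log2 fold change of 0.03. Atp5h (0.62, called) lies 166 bases from Kctd2, at 0.07 (SE 0.13, adjusted p = 0.761 by edgeR's quasi-likelihood test). Sdha (0.10) lies 29 bases from Ccdc127, at -0.48 (SE 0.16, adjusted p = 0.0927). Sdhd (0.15) lies 98 bases from Timm8b, which encodes an import chaperone of mitochondria, at 0.40 (SE 0.20, adjusted p = 0.229).

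Among transcripts of the members, Atp5s is shown for a pair of transcripts whose shares moved in opposite directions; it was chosen after its values were seen. Its transcript Atp5s-204 held 54.2, 72.4 and 61.8% of the gene's reads in control and 49.6, 50.5 and 43.6% in knockout libraries, and Atp5s-201 held 28.5, 17.7 and 22.7% and 34.0, 30.4 and 39.4%. Neither pair of groups overlapped, with exact two-sided permutation p = 0.1, the smallest possible, and 1.0 adjusted over 75 transcript shares. Reads of coding transcripts made up 94.5 to 95.6% of the members' reads in the 6 libraries. Over all protein-coding genes this share was 93.8 to 94.9% in 5 libraries and 89.9% in knockout replicate 2. The members' share there was 94.5%, the lowest of their 6 values. In complex III it was 90.4% there and 92.2 to 94.1% in the other 5 libraries.

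Reads of annotated pseudogenes named after the members were few, at most 7.11 in any library, for Atp5l2-ps. Among fat cell markers Fabp4, which endothelial cells also make, rose from 6.38, 5.21 and 6.57 CPM to 18.0, 29.6 and 24.3 CPM (log2 fold change 1.98, SE 0.23, adjusted p = 0.00293 by edgeR's quasi-likelihood test), while Lep was at 0 reads in all 6 libraries and Adipoq at 0 in 5.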
